A study of Rattus norvegicus with 20 samples.

Results

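The glutamate, GABA and glycine receptor genes carry the fast and the modulatory synaptic input of the hypothalamic supraoptic nucleus (SON). Genes were taken by name: AMPA (Gria), kainate (Grik), NMDA (Grin), delta (Grid) and metabotropic (Grm) glutamate receptors, GABA-A (Gabra to Gabrr), GABA-B (Gabbr) and glycine (Glr) receptors. A gene was kept where its mean normalized count was at least 10 in a table that holds aged euhydrated rats. Of 52 genes with such names, 47 were kept, 26 for glutamate and 21 for GABA or glycine, out of 32402 genes in the tables, of which 15456 reached the same level. Gabra6, Gabrp, Gabrr1, Gabrr2 and Gabrr3 fell short. Gabrr2, just outside, had means of 9.16 and 7.99 normalized counts in the tables that decide, and Glra4, just inside, had 15.8 and 16.0.

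The samples were SON punches of male Wistar Han rats, 5 in each of 4 groups: adult rats of 3 months and aged rats of 18 months, each either euhydrated (EH) or dehydrated (DH). The labels give DH as 2 days without water, whereas the study's methods give a longer period. Polyadenylated RNA was sequenced, and the deposited values are read counts per gene divided by a size factor per library (normalized counts), in 1 table for each comparison. Counted reads per library were 24268398 to 30348118 (median 27691998). Avp, the vasopressin gene made by a group of the magnocellular neurones (MCNs) of this nucleus, was read at 113731 normalized counts or more in every rat of the DH tables. Punches hold neighbouring tissue too, and in bulk RNA fewer cells of a type and less RNA per cell cannot be told apart. Per the study's methods, RNA of both ages was isolated and sequenced in parallel. The methods also state group housing with whole cages assigned to EH or DH, so rats of 1 group can share a cage, and which rats did is not given in the sources used here.

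MCNs release vasopressin and oxytocin in proportion to their firing, and glutamate and GABA are the main transmitters acting on them. AMPA and kainate receptors pass fast excitatory current, NMDA receptors add a slower, calcium-carrying current, and metabotropic receptors act through G proteins on either side of the synapse. GABA-A receptors are chloride channels built from mixed subunits, of which gamma subunits favour synaptic and delta subunits favour extrasynaptic positions. GABA-B receptors are obligate heteromers of Gabbr1 and Gabbr2, and glycine receptors open chloride channels as well, in the SON also in response to taurine from glia.

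Dehydration in adult rats changed 11 of the 47 receptor genes, 8 lower and 3 higher, most of them subunits of GABA receptors. Among the lower were the GABA-A subunits Gabra4, Gabra5, Gabrb2 and Gabrd, the GABA-B subunit Gabbr2, the kainate subunit Grik1 and the metabotropic receptor Grm5. Higher were the GABA-A subunits Gabrq (theta) and Gabre (epsilon), by 44.0% and 42.1%, and the obligatory NMDA subunit Grin1, by 9.30%. Of GABA and glycine receptor genes 8 of 21 were called, and of glutamate receptor genes 3 of 26. Calls are two-sided limma tests on log2(normalized count + 1), with p-values adjusted over every gene tested by the Benjamini-Hochberg method and a threshold of 0.05. Log2 fold changes (LFCs) are on that scale and are given ± SE.

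The 11 calls are 23.4% of the receptor genes, where 12.7% of all 15280 genes tested were called, 7.67% as higher and 4.99% as lower. With libraries scaled to equal totals, 2 receptor genes were higher and 13 lower, and over all genes the split moved from 1172 higher and 762 lower to 890 higher and 1161 lower. LFCs were below 0 in 40 of 47 receptor genes with a median of −0.09, against 52.2% of all genes and a median of −0.01. Groups did not overlap in 6 of 47 genes, and over all genes in 10.9%. The medians of the glutamate and of the GABA and glycine genes were alike at −0.09 each.

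**Figure D1:**
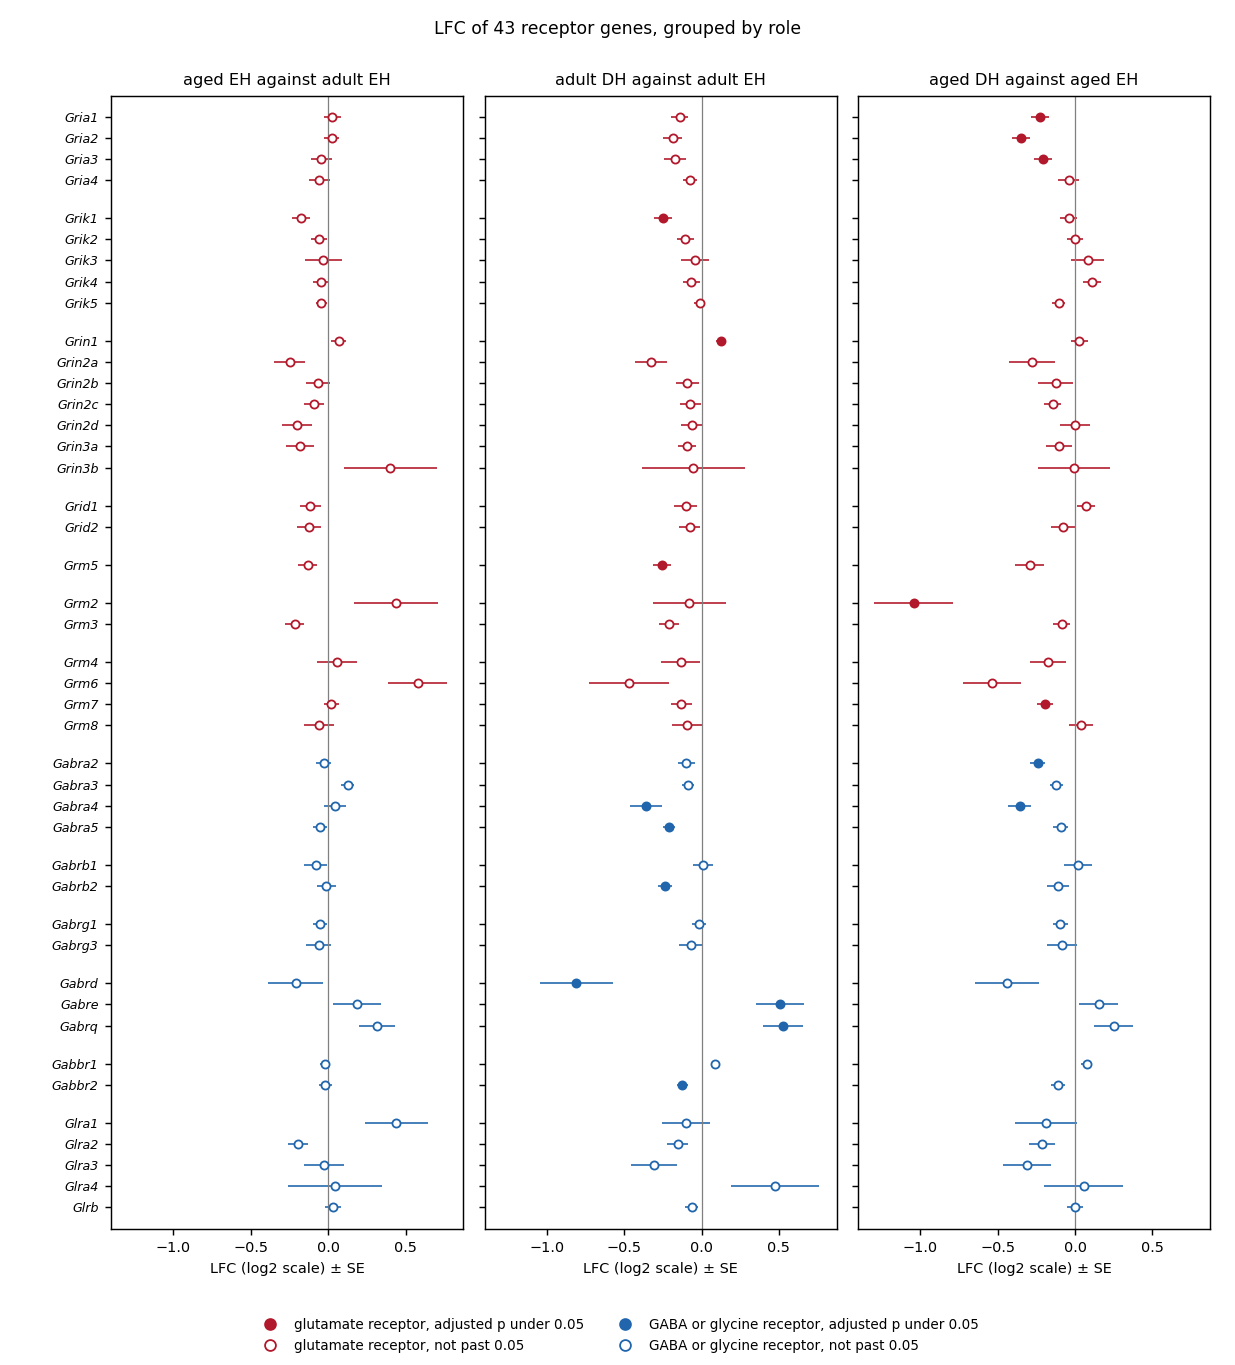
LFC ± SE (limma, log2 scale) of 43 of the 47 receptor genes in the 3 comparisons, ordered by role, with glutamate receptors in red and GABA or glycine receptors in blue. Filled points passed an adjusted p of 0.05: none in aged EH against adult EH, 10 of the plotted genes in adult DH and 7 in aged DH, where all 7 lie below 0.

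Gabrq and Gabre were the receptor genes that rose most among the calls. Their subunits are enriched in the hypothalamus and monoaminergic nuclei, and epsilon makes GABA-A receptors insensitive to benzodiazepines. Gabrq was at 389, 379, 385, 410 and 446 normalized counts in adult EH rats and at 691, 578, 667, 385 and 629 in adult DH rats. The 4 DH rats other than rat 4 lay above every EH rat (LFC 0.53 ± 0.13, adjusted p = 0.0168, limma). Gabre was at 250, 419, 430, 283 and 329 in adult EH and at 424, 441, 512, 402 and 635 in adult DH. Here 3 DH rats lay above every EH rat (LFC 0.51 ± 0.16, adjusted p = 0.0483, limma).

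In RefSeq the genes Gabre, Gabra3 and Gabrq are neighbours on the X chromosome, and Gabra3 did not share the direction, with an LFC of −0.09 (adjusted p = 0.143, limma). The upstream sequences of Gabrq and Gabre are shown because these neighbours moved together. They are the 250 bases before the RefSeq start in GRCr8, 5′ to 3′ on the strand of the gene, with matches to the GC box (GGGCGG, on either strand) in capitals.
Gabrq, chrX:155738186-155738435, plus strand: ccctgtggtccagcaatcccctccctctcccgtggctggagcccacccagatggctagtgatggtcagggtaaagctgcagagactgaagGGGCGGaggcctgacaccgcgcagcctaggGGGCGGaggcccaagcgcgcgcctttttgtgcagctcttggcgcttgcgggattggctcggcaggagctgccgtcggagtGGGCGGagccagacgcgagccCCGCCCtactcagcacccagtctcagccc
Gabre, chrX:155120722-155120971, minus strand: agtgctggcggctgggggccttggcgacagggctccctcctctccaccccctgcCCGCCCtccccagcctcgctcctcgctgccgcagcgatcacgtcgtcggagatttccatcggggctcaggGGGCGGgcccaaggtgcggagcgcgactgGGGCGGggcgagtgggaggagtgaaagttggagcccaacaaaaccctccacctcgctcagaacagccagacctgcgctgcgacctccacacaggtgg
The GC box occurred in 30.5% of 33469 RefSeq upstream sequences of this length and in 14 of the 30 receptor genes that matched by symbol. The cyclic AMP response element (TGACGTCA), the AP-1 site (TGANTCA) and the E-box (CACGTG) occurred in 1.59%, 6.34% and 5.59% of all sequences, and in none of the 30. A match is a run of letters and does not show a site in use.

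The subunits that fell include those of extrasynaptic GABA-A receptors. Gabrd, the delta subunit of receptors that carry tonic current, was at 224, 119, 150, 235 and 154 normalized counts in adult EH and at 98.7, 70.5, 67.7, 159 and 115 in adult DH. The groups overlapped through DH rat 4 (LFC −0.81 ± 0.24, adjusted p = 0.0396, limma). Gabra4, which often assembles with delta, was at 1401, 1071, 1081, 1276 and 1263 in adult EH and at 885, 879, 795, 1203 and 1007 in adult DH. DH rat 4 again lay within the EH range (LFC −0.36 ± 0.10, adjusted p = 0.0342, limma).

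Gabra5, an alpha subunit that is largely extrasynaptic, was at 983, 1094, 1066, 1062 and 1057 normalized counts in adult EH and at 920, 859, 922, 924 and 922 in adult DH. Every DH rat lay below every EH rat (LFC −0.21 ± 0.04, adjusted p = 0.00408, limma). Gabrb2, a beta subunit, was at 1376, 1305, 1330, 1355 and 1438 in adult EH and at 1170, 1275, 1129, 1106 and 1094 in adult DH, also without overlap (LFC −0.24 ± 0.05, adjusted p = 0.00425, limma).

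**Figure D2:**
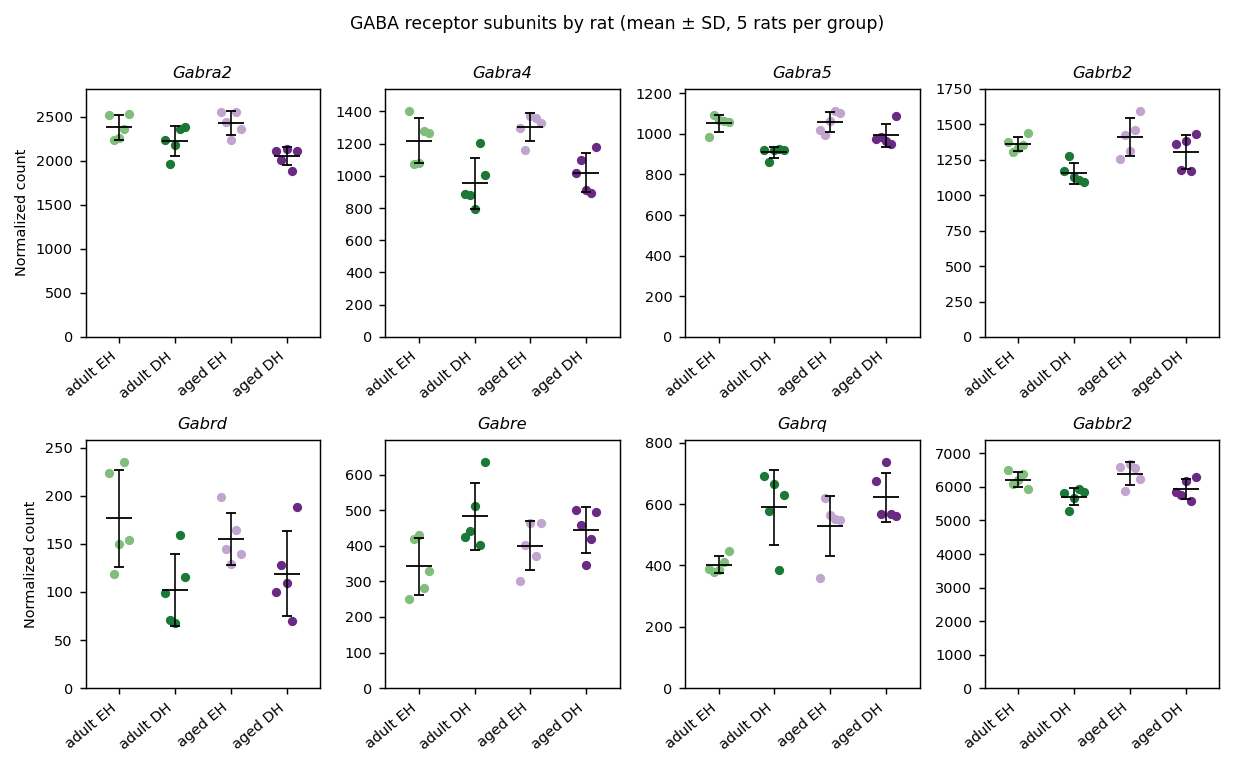
Normalized counts of 8 GABA receptor subunit genes in each of 20 rats, with the mean ± SD of 5 rats as a black bar, and values for each age taken from that age's DH table. Gabra5 and Gabrb2 are separate between adult EH and adult DH, Gabra2 between aged EH and aged DH, Gabrq and Gabre are higher in most adult DH rats, and Gabbr2 is lower in 4 of 5 adult DH rats than in any adult EH rat.

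Among GABA-B subunits, Gabbr2, which couples the receptor to its G protein, was at 6516, 6090, 6196, 6379 and 5925 normalized counts in adult EH and at 5812, 5284, 5672, 5954 and 5843 in adult DH. DH rat 4 alone overlapped the EH range (LFC −0.12 ± 0.04, adjusted p = 0.0424, limma). Gabbr1, which binds GABA, had an LFC of the other sign, 0.09 ± 0.03, and just missed the threshold (adjusted p = 0.0501, limma) although its groups did not overlap. No glycine receptor gene passed. Glra3 had an LFC of −0.31 (adjusted p = 0.198, limma) and Glrb, the subunit that anchors the receptor to gephyrin, −0.06 (adjusted p = 0.336, limma).

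Of the glutamate receptors in adult DH, Grm5, a group I receptor coupled to phospholipase C, was at 1036, 880, 949, 928 and 980 normalized counts in EH and at 827, 738, 835, 868 and 733 in DH. All DH rats lay below all EH rats (LFC −0.26 ± 0.06, adjusted p = 0.0119, limma). Grik1, the kainate subunit GluK1, was at 833, 928, 824, 770 and 874 in EH and at 780, 695, 668, 677 and 742 in DH, and DH rat 1 alone reached the EH range (LFC −0.25 ± 0.06, adjusted p = 0.0139, limma). Grin1 was at 11711, 11331, 11333, 11485 and 10579 in EH and at 12051, 11890, 12486, 12794 and 12452 in DH, without overlap (LFC 0.13 ± 0.03, adjusted p = 0.0186, limma). The other NMDA subunits had LFCs below 0, the lowest being Grin2a with −0.33 (adjusted p = 0.0533, limma). AMPA subunits had LFCs of −0.08 to −0.19, none past the threshold.

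The adult calls differ in how far they rest on single rats. Gabra5, Gabrb2, Gabrq, Grik1, Grin1 and Grm5 were called whichever of the 10 rats was left out. The count of 11 fell to 7 without adult EH rat 1 and to 6 without adult EH rat 5, adult DH rat 2 or adult DH rat 3. Without adult DH rat 4, which overlapped the EH range in Gabra4, Gabrd, Gabrq and Gabbr2, it was 14. Gabra4 lost its call without adult EH rats 1, 5 or 6 or adult DH rats 1, 2 or 3 (adjusted p up to 0.0848, limma). Gabrd lost it without adult EH rats 1, 4, 5 or 6 or adult DH rats 1, 2 or 3 (up to 0.0975). Gabre lost it without adult EH rats 1, 5 or 6 or adult DH rats 1, 2, 3 or 5 (up to 0.112), and Gabbr2 lost it without adult EH rats 1, 2, 4 or 5 or adult DH rats 1, 2, 3 or 5 (up to 0.104). In these rats 2 of 6 striatal neurone markers were called, in opposite directions, of which Drd1 was lower (LFC −0.70), with summed levels of the 6 at 2941 to 3275 normalized counts in adult EH and 2889 to 4003 in adult DH, none at 0. The part of neighbouring striatal tissue in the adult results was not tested.

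Dehydration in aged rats changed 7 of the 47 receptor genes, all of them lower in DH, and 5 of the 7 were glutamate receptors. These were the AMPA subunits Gria1, Gria2 and Gria3, the metabotropic receptors Grm2 and Grm7, and the GABA-A subunits Gabra2 and Gabra4. Thus 3 of 4 AMPA subunit genes were called, and 2 of 21 genes for GABA or glycine receptors. The 7 calls are 14.9% of the receptor genes, where 7.29% of all 15346 genes tested were called, 4.05% as higher and 3.25% as lower. LFCs were below 0 in 33 of 47 receptor genes with a median of −0.09, against 51.0% of all genes and a median of −0.00. Groups did not overlap in 3 of 47 genes, and over all genes in 7.05%. By class the medians were alike at −0.09 each. LFCs were below 0 in 18 of 26 glutamate receptor genes and in 15 of 21 genes for GABA or glycine receptors.

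Gria2 encodes GluA2, the subunit that keeps calcium out of AMPA receptors. It was at 10010, 9394, 9855, 10756 and 10530 normalized counts in aged EH and at 7691, 7976, 7384, 7384 and 9364 in aged DH. Every DH rat lay below every EH rat, with rat 6 close to the boundary (LFC −0.35 ± 0.06, adjusted p = 0.00333, limma). Gria1 was at 3080, 2894, 2959, 3200 and 3429 in aged EH and at 2843, 2572, 2639, 2369 and 2909 in aged DH, where rat 6 overlapped (LFC −0.22 ± 0.06, adjusted p = 0.0327, limma). Gria3 was at 2527, 2419, 2583, 3024 and 2821 in aged EH and at 2324, 2256, 2390, 2157 and 2449 in aged DH. Again DH rat 6 alone reached the EH range (LFC −0.20 ± 0.06, adjusted p = 0.0446, limma). Gria4 had an LFC of −0.04 (adjusted p = 0.787, limma).

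Grm2, a group II receptor that restrains glutamate release from terminals, had the lowest LFC of any receptor gene. It was at 300, 285, 317, 527 and 161 normalized counts in aged EH and at 129, 120, 234, 112 and 151 in aged DH. Of the DH rats 4 lay below every EH rat (LFC −1.04 ± 0.26, adjusted p = 0.0248, limma). Grm7, a group III receptor of the presynaptic active zone, was at 1036, 1073, 1146, 1130 and 1068 in aged EH and at 973, 931, 1027, 853 and 994 in aged DH, without overlap (LFC −0.19 ± 0.05, adjusted p = 0.0428, limma). No kainate, NMDA or delta receptor gene passed.

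Gabra2, an alpha subunit of synaptic receptors, was at 2555, 2447, 2234, 2554 and 2359 normalized counts in aged EH and at 2113, 2016, 2136, 1891 and 2117 in aged DH. The groups did not overlap (LFC −0.24 ± 0.05, adjusted p = 0.00658, limma). Gabra4 was at 1294, 1157, 1369, 1361 and 1329 in aged EH and at 1016, 1099, 913, 893 and 1177 in aged DH, with rat 6 within the EH range (LFC −0.36 ± 0.07, adjusted p = 0.00958, limma). Gabra4 was the receptor gene called in both dehydration comparisons, which share no rats. Gabrq and Gabre had LFCs of 0.25 (adjusted p = 0.271, limma) and 0.15 (adjusted p = 0.537, limma) in the aged rats.

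**Figure D3:**
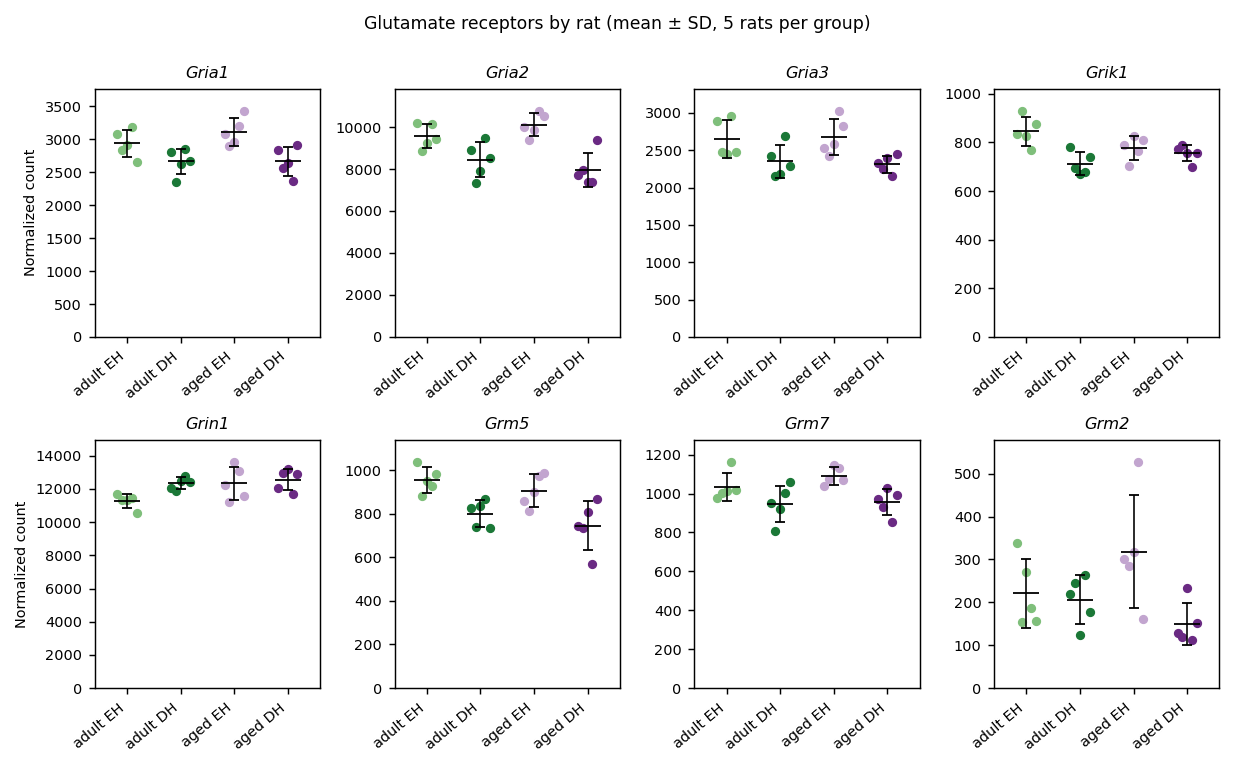
Normalized counts of 8 glutamate receptor genes in each of 20 rats, with the mean ± SD of 5 rats as a black bar, and values for each age taken from that age's DH table. Gria2 and Grm7 are separate between aged EH and aged DH, Grm5 and Grin1 between adult EH and adult DH, and Grm2 is lower in 4 of 5 aged DH rats than in any aged EH rat.

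Markers of forebrain glutamatergic neurones, which lie outside the SON, moved with the aged results. Of 9 such markers 5 were called in aged DH, all lower: Neurod6 (LFC −2.49), Slc17a7 (−1.92), Neurod2 (−1.86), Bhlhe22 (−1.05) and Camk2a (−0.49). The summed level of the 9 was 7789 to 11531 normalized counts in aged EH and 4711 to 6653 in aged DH, with none at 0. Slc17a7, the vesicular glutamate transporter of cortical neurones, was at 3261, 2035, 1916, 1609 and 1109 in aged EH and at 1064, 324, 351, 389 and 614 in aged DH. The same genes did not separate the adult groups: the summed level was 5843 to 10187 in adult EH and 5156 to 8256 in adult DH, with none of the 9 called. Within adult EH rats, Slc17a7 ranged from 304 to 2391. The part of neighbouring forebrain tissue in the lower AMPA, Grm2 and Gabra2 values of aged DH rats was not tested.

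**Figure D4:**
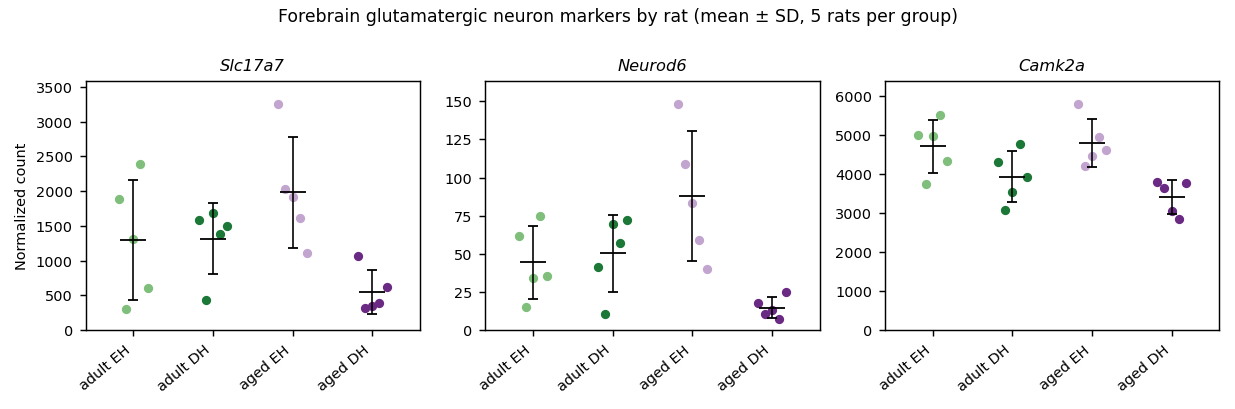
Normalized counts of the forebrain markers Slc17a7, Neurod6 and Camk2a in each of 20 rats, with the mean ± SD of 5 rats as a black bar and a vertical axis from 0. In aged DH all 5 rats lie below all 5 aged EH rats for each of the 3 genes, whereas the adult groups overlap.

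In the aged comparison Gria2, Gabra2 and Gabra4 were called whichever of the 10 rats was left out. The count of 7 fell to 3 without aged EH rat 5, aged DH rat 2 or aged DH rat 5, and to 4 without aged EH rat 6 or aged DH rat 1. Without aged DH rat 6, which overlapped the EH range in Gria1, Gria3 and Gabra4, it was 10. Gria1 lost its call without aged EH rats 1, 5 or 6 or aged DH rats 2, 3 or 5 (adjusted p up to 0.0829, limma). Gria3 lost it without aged EH rats 4, 5 or 6 or aged DH rats 1, 2, 3 or 5 (up to 0.117). Grm7 lost it without aged EH rats 2, 4, 5 or 6 or aged DH rats 1, 2 or 5 (up to 0.108), and Grm2 without aged EH rat 5 or aged DH rats 1, 2 or 5 (up to 0.0697).

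Receptor genes called at one age and not at the other were not shown to differ between the ages. The difference between the responses, tested over all 20 rats with limma, passed for 0 of 47 receptor genes and for 0% of 15159 genes, with 3 receptor genes and 1515 genes in all at an unadjusted p under 0.05. Over all genes edgeR also called 0 and DESeq2 called 55, none of them receptor genes. The largest estimates among the called genes were those of Grm2 with −0.96 (adjusted p = 0.415, limma), Gabrd with 0.37 (0.775), Gabre with −0.35 (0.620) and Gabrq with −0.28 (0.688), each given as aged less adult response. For Gabra4 the estimate was 0.00 (0.998), and for Gria2 it was −0.16 (0.582).

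The mean of the adult and the aged response, a contrast chosen after these values had been seen, used 10 DH against 10 EH rats and gave more calls. It called 23 of 47 receptor genes, or 48.9%, where 21.3% of all genes were called, 11.5% as higher and 9.89% as lower. With equal totals the split over all genes moved from 1736 higher and 1499 lower to 1403 higher and 2150 lower, and that of receptor genes from 3 and 20 to 3 and 23. Lower were 10 genes for GABA and glycine receptors and 10 for glutamate receptors, and higher were Gabrq, Gabre and Gabbr1. The lowest adjusted p-values were those of Gria2 (LFC −0.27 ± 0.05, adjusted p = 0.000241, limma), Gabra4 (−0.36 ± 0.07, 0.000604), Gabra5 (−0.15 ± 0.03, 0.00112), Grm5 (−0.27 ± 0.06, 0.00212) and Gabra2 (−0.17 ± 0.04, 0.00214).

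By role, this contrast called 3 of 4 AMPA subunits, both GABA-B subunits in opposite directions and both group II metabotropic receptors. It called 1 of 7 NMDA subunits (Grin2a, LFC −0.30), 1 of 5 kainate subunits (Grik1, −0.14) and 2 of 5 glycine receptor subunits (Glra2, −0.18, and Glra3, −0.31). Genes that no limma test within an age, of ageing or of the difference had called included Gabra3 (−0.10), Gabbr1 (0.08), Glra2, Glra3, Grin2a, Grm3 (−0.15) and Grm6 (−0.50). Of the 23 calls, 17 held whichever rat was left out. Among those lost at least once were Glra3 and Grm2, without 12 of the 20 rats each, Gabre and Grm6, without 9 each, and Grin2a, without aged EH rat 5, adult EH rat 5, adult DH rat 3 or aged DH rat 5. Camk2a (−0.38), Bhlhe22 (−0.54) and Neurod6 (−1.19) of the 9 forebrain markers were also called in this contrast, and their part in it was not tested.

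Ageing without dehydration left the receptor genes without a call. None of 47 was called between aged EH and adult EH, where 5.99% of 15369 genes were called. An unadjusted p under 0.05 (limma) was found for 10 of the 47 and for 3116 of the 15369, a like share. Groups were without overlap in 0 of the 47 and in 6.38% of all genes. The lowest adjusted p-values were those of Grm3, a glial and presynaptic group II receptor (LFC −0.22, adjusted p = 0.0502, limma), Grik1 (−0.18, 0.0984) and Gabra3 (0.13, 0.0998). By other tools edgeR called none, and DESeq2 called Grm3 and Gabrq. The medians were −0.05 for glutamate receptors and −0.01 for GABA and glycine receptors, and the latter was 0.00 with libraries centred on the median gene. This comparison shares its adult EH rats with adult DH and its aged EH rats with aged DH. Grm6, Glra1 and Grm2 had the highest LFCs of 0.58, 0.44 and 0.44, none past the threshold (adjusted p of 0.102, 0.245 and 0.416, limma). In the same libraries 4 of 6 oligodendrocyte, 2 of 3 oligodendrocyte precursor and 2 of 3 meningeal fibroblast markers were lower in aged EH. Also lower were 2 of 8 astrocyte and 1 of 4 endothelial markers, and 3 of 6 microglia markers were higher.

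Ratios between receptor genes of a rat do not depend on the size factors, and 10 were compared in 3 comparisons by exact permutation tests, two-sided, adjusted over the 30 tests. The smallest p that 5 against 5 rats can give is 0.00794, or 0.0476 after adjustment here, and 5 of 30 tests reached it. The log2 ratio of Gabbr2 to Gabbr1 was −2.38, −2.44, −2.41, −2.35 and −2.54 in adult EH and −2.61, −2.72, −2.68, −2.55 and −2.62 in adult DH. In aged EH it was −2.34, −2.49, −2.43, −2.42 and −2.45, and in aged DH −2.59, −2.65, −2.56, −2.67 and −2.58. Dehydrated rats lay below all euhydrated rats at either age, by −0.21 in adults and −0.19 in aged rats (exact permutation p = 0.00794 each, adjusted 0.0476, n = 5 per group). Between aged EH and adult EH the same ratio differed by 0.00 (exact permutation p = 0.952).

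**Figure D5:**
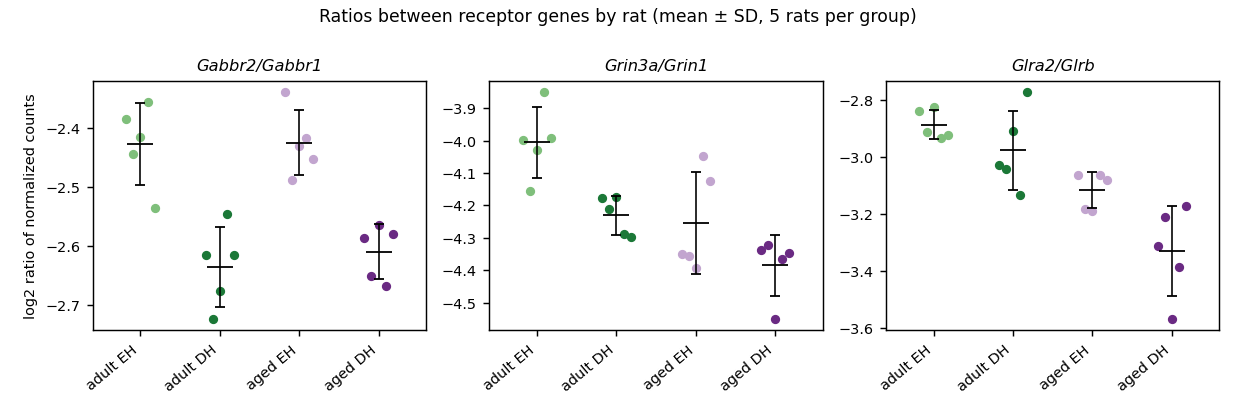
Log2 ratios of normalized counts for 3 gene pairs in each of 20 rats, with the mean ± SD of 5 rats as a black bar, on axes that do not start at 0. Gabbr2 to Gabbr1 is lower in all DH rats than in all EH rats of the same age, Grin3a to Grin1 is lower in all adult DH than in all adult EH rats, and Glra2 to Glrb is lower in all aged EH than in all adult EH rats.

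Further ratios without overlap included those of Grin3a to Grin1 in adult DH and of Glra2 to Glrb in ageing. Grin3a, a subunit that lowers calcium entry through NMDA receptors, stood to Grin1 at −4.01 ± 0.11 (SD, n = 5) in adult EH and −4.23 ± 0.06 in adult DH on the log2 scale. Glra2, the alpha subunit that is prominent in immature neurones, stood to Glrb at −2.89 ± 0.05 in adult EH and −3.12 ± 0.06 in aged EH. Neither Glra2 nor Glrb was called in ageing, and both ratios had an adjusted exact permutation p of 0.0476. The ratio of Gria1 to Gria2 was higher by 0.12 and that of Gria3 to Gria2 by 0.14 in aged DH, neither past the threshold (adjusted exact permutation p of 0.147 and 0.119).

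Genes that assemble, anchor or escort the receptors were read from lists. Of 33 glutamate receptor partners tested, 2 were called in adult DH, both higher: Nptxr, the neuronal pentraxin receptor (LFC 0.71 ± 0.08, adjusted p = 5.37e-05, limma), and Cacng5, a transmembrane AMPA receptor regulator (0.30 ± 0.06, 0.00792). In aged DH 6 of the 33 were called. Over all genes 12.7% were called in adult DH and 7.29% in aged DH. Nptxr was again higher (0.34 ± 0.05), and the AMPA receptor auxiliaries Cnih2 (−0.23) and Cnih3 (−0.60), the assembly factor Frrs1l (−0.25), the pentraxin Nptx2 (−0.32) and the kainate receptor auxiliary Neto2 (−0.24) were lower. The median LFC of these partners was −0.03 in adult DH and −0.14 in aged DH. The forebrain markers above fell in the same aged DH rats, and the part of neighbouring forebrain tissue in these partner values was not tested.

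Of 15 partners of GABA and glycine receptors, Iqsec3, a gephyrin-binding exchange factor of inhibitory synapses, was higher in DH at both ages, with LFCs of 0.21 ± 0.03 in adult (adjusted p = 0.000756, limma) and 0.17 ± 0.04 in aged rats (0.0169). Ubqln1, which stabilises GABA-A receptors, was higher in adult DH (0.10 ± 0.03), and Shisa7, a GABA-A receptor auxiliary, was lower in aged DH (−0.35 ± 0.07). Of the 15, 2 were called in adult DH, both higher, and in aged DH 1 was higher and 1 lower. The shares called over all genes were 12.7% and 7.29%. The median LFC of the 15 was 0.00 in adult DH and 0.03 in aged DH. In ageing, 1 gene of each list was called, where 5.99% of all genes were. Grip2, an AMPA receptor scaffold, was higher in aged EH (0.43 ± 0.07), and Dbi, the diazepam binding inhibitor, lower (−0.28 ± 0.06). No partner was called in the difference between the ages.

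GABA-A subunit genes lie in neighbouring sets in RefSeq (GRCr8). In the set of Gabrb1, Gabra4, Gabra2 and Gabrg1, the LFCs in aged DH were 0.02, −0.36, −0.24 and −0.09. Of these 4 genes Gabra4 and Gabra2 were called, and differences between neighbours were not tested.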

How the data were processed

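RNA of SON punches from 20 rats, 5 per group, was analysed. Per the study's methods and the labels, reads were checked with FastQC, aligned with STAR to Rn6, counted with featureCounts and scaled with DESeq2. For FastQC, STAR and featureCounts no source used here names a version. The deposited signal of a library is its count of reads per gene over a DESeq2 size factor, which the authors estimated within each table. The 3 tables also hold the authors' fold changes, standard errors, Wald statistics and p-values, which were not used. All 30 per-sample columns were used. Symbols missing from the adult table were taken by Ensembl ID.

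Genes with a mean of at least 10 in a fit were tested with limma 3.58.1 (R 4.3.3), moderated along the mean, on log2 of the value plus 1, over all genes. The difference between the ages and the mean of the 2 responses were fitted over all 20 rats with values from the DH table of each age. Size factors come from separate tables, so levels set across tables carry that limit. Values were whole multiples of a step per library within 0.1 read in all genes, and edgeR 4.0.16 and DESeq2 1.42.0 were run on the reads so recovered as alternatives. Fits were tested on simulated data with 200 changed genes. Ratios were tested exactly with scipy 1.17.1.

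The receptor genes and all lists were chosen with earlier results of these data known. Values in every rat are given for 16 of the 17 receptor genes called in at least 1 of 4 fits (ageing, adult DH, aged DH and the difference). Others are given by counts, ranges and examples per role. Some genes are counted but not reported here by name or value. P-values set group differences against the spread between these rats, each taken as independent. Shared cages, whose members are not given, could not be taken into account. Levels were not compared between genes, since transcript lengths were not used. Gsg1l, Shisa9, Kctd8, Kctd12, Kctd16 and Pecam1 were not found by symbol and were not analysed here.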

Additional observations from a re-analysis of the deposited data

Results flagged for a closer look

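In the adult comparison, Gabra5 in adult DH was marked for a sample far from the others. Rat 2 was lowest at 859 normalized counts, and the next rat was at 920. The gap was 0.941 of the group's range, above Dixon's 95% critical value of 0.71 for 5 samples. Of 36 groups examined this was the only one past that value, and chance alone marks about 1 in 20.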

How the results depend on the processing

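No receptor gene call changed direction under any alternative tried (pseudocount, filter, scaling, centring, moderation, edgeR, DESeq2, replicate block, each rat left out), and the calls of single partner and marker genes were not compared across them. In adult DH, glutamate receptor calls went from 3 to 5 with a minimum mean of 50, to 6 with equal totals and to 6 by DESeq2. GABA and glycine receptor calls went from 8 to 4 without a filter and to 2 without a trend in the moderation. In aged DH, glutamate receptor calls went from 5 to 3 without a filter, to 3 with median centring and to 1 without a trend. In ageing, glutamate receptor calls went from 0 to 1 with a pseudocount of 10, to 1 with a minimum mean of 50, to 2 with equal totals and to 1 by DESeq2, and GABA and glycine receptor calls from 0 to 1 by DESeq2. The cause was not tested. Over all genes, dropping the trend lowered the calls of ageing from 921 to 516 and of aged DH from 1119 to 671.

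Deviations of same-numbered rats from their groups had correlations of −0.08 to 0.16 over the pairs. Such values cannot exclude that numbers carry a shared order of handling, and the main fits did not pair rats by number. With the replicate block, glutamate receptor calls were 1 in adult DH, 3 in aged DH and 6 in the mean of both ages, and GABA and glycine receptor calls were 1, 1 and 9. No receptor gene was called in ageing or in the difference between the ages with the block, and over all genes adult DH calls fell from 1934 to 987 and aged DH calls from 1119 to 653.

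Leaving out each rat in turn, glutamate receptor calls ranged from 3 to 7 in adult DH, 1 to 6 in aged DH, 0 to 1 in ageing and 7 to 11 in the mean of both ages. GABA and glycine receptor calls ranged from 3 to 7, 2 to 4, 0 to 2 and 10 to 14. The ratio of Gabbr2 to Gabbr1 ranged from −0.24 to −0.19 in adult DH and from −0.20 to −0.16 in aged DH. Depth limits the genes of lowest counts most, and Grin3b and Glra4 had the widest SEs in adult DH, 0.33 and 0.29.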
